A study of Mus musculus with 7 samples.

Results

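Keratins are the intermediate filament proteins of epithelial cells. Each filament is built from pairs of an acidic type I and a basic type II keratin, and different epithelia use different pairs, so that keratins serve as markers of epithelial lineage. In the mammary gland the luminal cells that line the ducts contain Krt7, Krt8, Krt18 and Krt19, whereas the basal or myoepithelial layer around them contains Krt5, Krt14 and Krt17. Suprabasal epidermis, the inner root sheath of the hair follicle, hair and nail each have their own sets.

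The keratin genes were taken as all probes of the array whose gene name in the files is Krt followed by a number, which leaves out keratin-associated proteins. There were 68 such probes for 52 genes, among 56605 probes for 37074 gene names. RNA was measured from 1 abdominal mammary gland, freed of lymph nodes, of each of 3 wild-type and 4 PRA transgenic mice, all nulliparous FVB females aged 20 to 25 weeks and taken at diestrus. PRA transgenic mice carry additional copies of the A form of the progesterone receptor, which a GAL-4 activator under the CMV promoter switches on, a promoter that is not specific to the mammary gland, and the labels call their glands preneoplastic. Wild-type mice were littermates, and each array held 1 animal. Each array paired Cy5-labeled gland RNA with Universal Mouse Reference RNA in Cy3, which pools cell lines, among them lines derived from mammary gland and skin. A log2 ratio above 0 therefore means more signal in the gland than in this pool.

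All 7 arrays lay on 1 slide, wild-type in row 1 and PRA transgenic in row 2, so that row and genotype cannot be told apart. Cy5 was well above background for 62.7% to 66.2% of probes on the wild-type arrays and 56.6% to 60.2% on the PRA transgenic arrays. For the Cy3 reference, which is the same RNA throughout, the shares were 53.2% to 54.0% and 47.2% to 50.6%. Saturation was not reached on any spot, and precision is limited by the number of arrays. In whole glands, fewer cells of a type and less RNA per cell cannot be told apart.

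A probe was tested where all arrays of either genotype had a Cy5 signal well above background. This held for 32 keratin probes of 29 genes, and 23 keratin genes had no such probe. Of the 32 probes, 26 were well above background on all 7 arrays and 6 on 5 or 6 arrays. The reference was well above background on all 7 arrays for 24 of the 32 probes, on no array for 5 and on some arrays for 3. A ratio against a reference that is not above background has no firm size, and this is stated where it applies.

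The luminal, simple epithelial and basal keratins were all measured, and those of hair largely were not. All 6 luminal and simple epithelial keratins (Krt7, Krt8, Krt18, Krt19, Krt20, Krt23) and all 4 basal keratins (Krt5, Krt14, Krt15, Krt17) were well above background on all 7 arrays. Of 16 suprabasal and stratified epithelial keratins 10 were tested, and Krt4, Krt12, Krt24, Krt76, Krt77 and Krt78 were not. Of 9 inner root sheath and companion layer keratins only Krt28 and Krt71 were tested, and neither was above background on all arrays. Of 16 hair and nail keratins 6 were tested (Krt31, Krt36, Krt42, Krt81, Krt85, Krt86). The untested members were Krt25, Krt26, Krt27, Krt72, Krt73, Krt74 and Krt75 of the inner root sheath, and Krt32, Krt33a, Krt33b, Krt34, Krt35, Krt39, Krt40, Krt82, Krt83 and Krt84 of hair and nail. For 13 of the 52 genes no probe was well above background on any array.

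**Figure D1:**
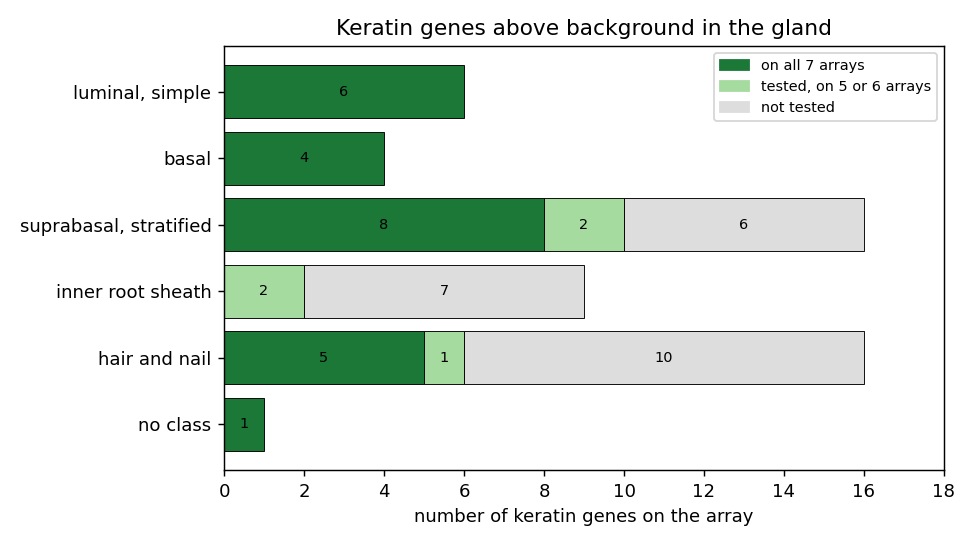
Horizontal bars give the number of keratin genes on the array in each class. Dark green marks genes whose Cy5 exceeded background on all 7 arrays, light green those tested but above it on 5 or 6 arrays, and grey those not tested. All 6 luminal and simple epithelial and all 4 basal keratins fall in dark green, against none of the 9 inner root sheath keratins.

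Several results below rest on single 60-base probes, and the probes that decide them are shown here as printed in the array design, 5′ to 3′. Krt19 and Krt7 are shown as the luminal keratins that varied most between animals, Krt42 because its probe varied like theirs, and Krt2 and Krt23 because they passed the threshold of the genotype comparison. Their positions on mm9 are chr11:100002392-100002451 (minus strand) for Krt19, chr15:101253718-101253777 (plus strand) for Krt7, chr11:100128252-100128311 (minus strand) for Krt42, chr15:101642000-101642059 (minus strand) for Krt2 and chr11:99339393-99339452 (minus strand) for Krt23.
Krt19: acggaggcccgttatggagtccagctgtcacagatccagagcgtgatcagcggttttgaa
Krt7: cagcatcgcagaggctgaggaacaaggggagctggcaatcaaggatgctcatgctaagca
Krt42: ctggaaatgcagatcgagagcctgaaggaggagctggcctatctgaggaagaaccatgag
Krt2: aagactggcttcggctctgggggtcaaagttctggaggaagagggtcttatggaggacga
Krt23: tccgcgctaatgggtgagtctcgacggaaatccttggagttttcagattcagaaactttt

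The hair keratins Krt81 and Krt83 are close relatives, and their probes are shown because they lie on almost the same stretch of both transcripts. Capitals mark the bases that differ from the Krt81 probe in an ungapped alignment. The Krt83 probe matched 51 of 55 aligned bases, so the signal of Krt81 may include Krt83 transcripts and is reported as uncertain. In Cy5 the Krt83 probe itself was well above background on 1 of 7 arrays, with a mean log2 signal of 2.77. The Krt81 probe was so on all 7, with a mean of 6.16. How much Krt83 adds to the Krt81 signal was not tested. Krt85 is another close relative. Whether its probe also detects the others was not tested, so its signal is treated as uncertain too. The Krt81 probe lies at chr15:101290583-101290642 and the Krt83 probe at chr15:101263556-101263615 of mm9, both on the minus strand. The accession of the Krt83 probe is named Krt87 in the RefSeq table of GRCm38.p6. A probe filed under another name now has the symbol Krt83 and was not used.
Krt81: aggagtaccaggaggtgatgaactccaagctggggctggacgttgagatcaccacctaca
Krt83: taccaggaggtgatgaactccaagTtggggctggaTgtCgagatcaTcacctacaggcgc

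By position, 27 of the genes had probes on chromosome 11 of mm9, 24 had probes on chromosome 15, and Krt85 had none. Type I keratins lay on chromosome 11 and type II keratins on chromosome 15, except that Krt18, a type I keratin, lay on chromosome 15 at 101862341 to 101862400, beside its partner Krt8 at 101827138 to 101827197.

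Krt5, Krt14 and Krt17 were higher in the gland than in the reference in all 7 animals, with log2 ratios near 3, and the ratios of Krt5 and Krt17 were even from animal to animal. Krt5, the type II keratin of basal cells, had log2 ratios of 3.00, 2.99 and 2.97 in wild-type and 3.12, 3.03, 3.16 and 2.92 in PRA transgenic glands. Its range over the 7 glands was 0.24, and its SD within genotypes of 0.0845 was larger than that of only 4.61% of the 34288 tested probes. The groups overlapped, with means of 2.99 ± 0.0197 (SD, n = 3) and 3.06 ± 0.108 (SD, n = 4). The log2 fold change of PRA transgenic over wild-type was 0.07 (95% interval -0.19 to 0.33). The evenness of Krt5 held for the ratio, since its log2 Cy5 signals ran from 10.47 to 11.21 and its log2 Cy3 signals, from the same reference RNA, from 7.35 to 8.25.

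Krt14, the type I partner of Krt5, had log2 ratios of 3.00, 2.92 and 3.87 in wild-type and 3.23, 3.52, 3.31 and 3.18 in PRA transgenic glands. Wild-type replicate 3 was the highest and the PRA transgenic glands lay within the wild-type range. The log2 fold change was 0.05 (95% interval -0.53 to 0.62).

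Krt17, a type I keratin of basal cells and skin appendages, had log2 ratios of 2.95, 2.89 and 2.91 in wild-type and 3.57, 3.16, 3.05 and 3.17 in PRA transgenic glands. All 4 PRA transgenic glands were above all 3 wild-type glands. Among all tested probes the genotypes did not overlap for 9.95% (5.42% higher in PRA transgenic glands), and among the 32 keratin probes this held for 2, those of Krt17 and Krt2, both higher. Krt17 thus had a log2 fold change of 0.32 (SE 0.15, adjusted p = 0.589 from limma), below 1.5-fold, and 0.21 without PRA transgenic replicate 1, the highest gland. In the Cy5 signal alone, scaled to each array's 75th percentile, it was 0.63 (SE 0.20, adjusted p = 0.463 from limma), which passed an unadjusted P under 0.05 with 1.5-fold change.

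Krt15, another type I keratin of basal cells, was uneven. Its log2 ratios were 2.10, -1.91 and 1.47 in wild-type and 1.46, 1.44, 2.10 and 0.70 in PRA transgenic glands. Wild-type replicate 2 stood apart below all others, and the remaining 6 glands overlapped between genotypes. Its range of 4.01 was the widest of the 29 genes, and its SD within genotypes of 1.43 exceeded that of 99.3% of tested probes. Its log2 fold change of 0.87 (95% interval -1.29 to 3.03, adjusted p = 0.827 from limma) became -0.36 without wild-type replicate 2.

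**Figure D2:**
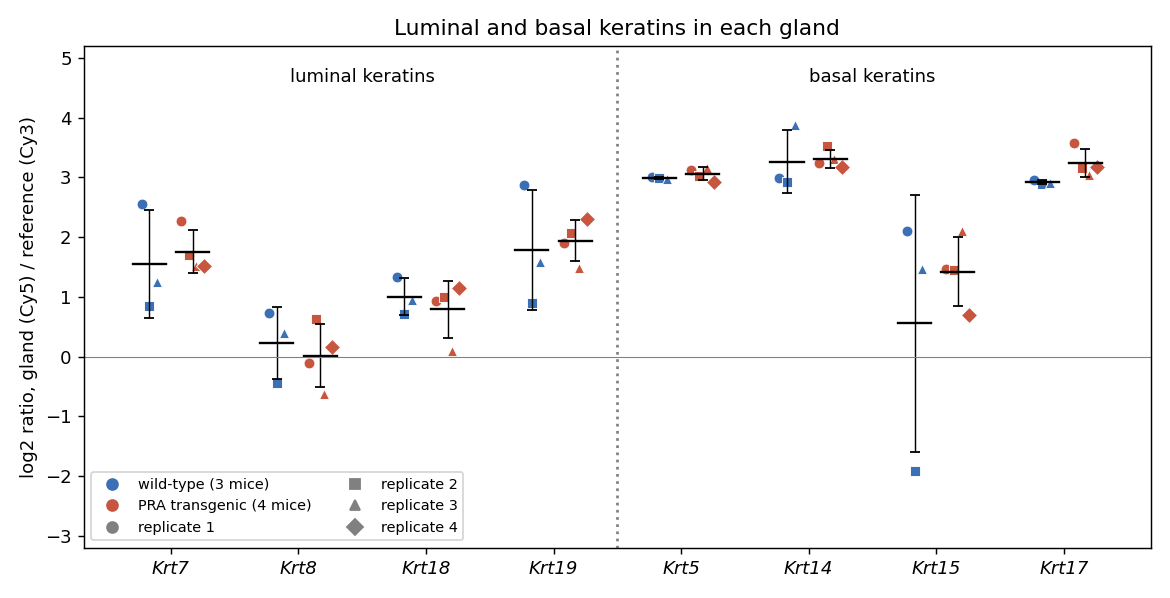
Log2 ratio of gland (Cy5) to reference (Cy3) for 4 luminal and 4 basal keratins, with 1 point per mouse, wild-type in blue, PRA transgenic in red and the marker shape giving the replicate number. Horizontal bars are group means and whiskers the SD. The 7 points of Krt5 lie within 0.24 of each other, those of Krt19 spread over 1.97 and those of Krt15 over 4.01, with wild-type replicate 2 at -1.91.

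In the ratio the luminal keratins varied between animals more than Krt5, and without separating the genotypes. In Cy5 alone the standard error of the genotype difference was 0.23 for Krt5, against 0.25 for Krt18, 0.34 for Krt8, 0.44 for Krt19 and 0.45 for Krt7, so that Krt5 and Krt18 were close by that measure. Krt19, the smallest type I keratin and a marker of luminal cells, had log2 ratios of 2.87, 0.90 and 1.59 in wild-type and 1.90, 2.08, 1.48 and 2.30 in PRA transgenic glands. Krt7, a type II keratin of ducts, had 2.56, 0.84 and 1.25 in wild-type and 2.27, 1.71, 1.52 and 1.51 in PRA transgenic glands. For both genes wild-type replicate 1 was the highest and wild-type replicate 2 the lowest, with the 4 PRA transgenic glands between them.

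Krt8 and Krt18, the type II and type I keratins that pair in all simple epithelia, were closer to the reference. Krt18 had log2 ratios of 1.33, 0.72 and 0.95 in wild-type and 0.93, 0.99, 0.09 and 1.15 in PRA transgenic glands. Krt8 had 0.73, -0.45 and 0.40 in wild-type and -0.11, 0.63, -0.63 and 0.16 in PRA transgenic glands. Wild-type replicate 1 was again the highest, and PRA transgenic replicate 3 was the lowest for both. A second Krt8 probe differed from the first by at most 0.0878 on any array.

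None of these 4 keratins passed an unadjusted P under 0.05 with 1.5-fold change. The log2 fold changes were 0.15 for Krt19 (95% interval -0.90 to 1.21), 0.20 for Krt7 (-0.77 to 1.18), -0.21 for Krt18 (-0.87 to 0.46) and -0.21 for Krt8 (-1.09 to 0.66). These intervals do not exclude a 1.5-fold difference. Leaving out wild-type replicate 1 raised the log2 fold change of Krt7 to 0.71, past that threshold, and leaving out wild-type replicate 2 turned that of Krt7 to -0.15 and that of Krt19 to -0.29. The SDs within genotypes of Krt19, Krt7, Krt8 and Krt18 were larger than those of 90.4%, 88.1%, 84.1% and 72.0% of tested probes.

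The 8 luminal and basal keratins were also compared in 28 pairs for being high or low in the same glands, with p-values from exact permutation of the 7 arrays and Benjamini-Hochberg adjustment over the pairs. By Pearson r the highest was Krt8 with Krt18, at Pearson r = 0.83 (two-sided exact permutation p = 0.00575, adjusted p = 0.161) and Spearman rho = 0.89 (p = 0.0123, adjusted p = 0.172). Krt7 with Krt19 followed at r = 0.82 (exact permutation p = 0.0262, adjusted p = 0.367) and rho = 0.68 (p = 0.11, adjusted p = 0.767). By Spearman rho the highest was Krt18 with Krt19, at 0.93 (exact permutation p = 0.00675, adjusted p = 0.172), with r = 0.69 (p = 0.0923, adjusted p = 0.431). No pair passed the adjustment.

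Without the 2 arrays farthest from the median of the first gene, r fell from 0.83 to 0.53 for Krt8 with Krt18 and was 0.84 for Krt7 with Krt19 and 0.94 for Krt18 with Krt19. After each genotype's mean was subtracted, r was 0.82 for Krt8 with Krt18, 0.82 for Krt7 with Krt19 and 0.76 for Krt18 with Krt19. In the Cy5 signal alone it was 0.82, 0.87 and 0.71. Within a single genotype 3 or 4 arrays are too few for a correlation. Krt5 with Krt18 had r = -0.69 (exact permutation p = 0.081, adjusted p = 0.431) and rho = -0.50 (p = 0.267, adjusted p = 0.77), and r was -0.13 without its 2 farthest arrays, so this value rests on those arrays.

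Markers of other cells also differed between the animals. The mean log2 ratio of 6 tested T and B cell genes was 1.72 in wild-type replicate 1 and -0.55 to -0.15 in the other glands. The mean of 8 tested skeletal muscle genes was 1.83, 2.94 and 2.63 in wild-type replicates 1 and 3 and PRA transgenic replicate 4 and -1.20 to -0.84 in the others. The mean of 15 tested luminal genes other than keratins lay between 3.10 and 3.59 in all 7 glands. That of 12 myoepithelial genes lay between 1.99 and 2.48. These means do not show that single genes were even. Among the luminal genes, Muc1 ran from -0.27 in PRA transgenic replicate 1 to 3.42 in wild-type replicate 3. Foxa1 ran from 2.34 in wild-type replicate 2 to 4.06 in wild-type replicate 1. For Cldn4 no array had Cy3 above background, and for Cdh1 and Prlr only 1 did. The ratios of Cldn4, Cdh1 and Prlr therefore have no firm size. The mean of the 6 luminal and simple epithelial keratins ran from 0.27 in wild-type replicate 2 to 1.34 in wild-type replicate 1. It includes Krt20, and Krt23, for which only 1 array had Cy3 above background. The part of the lymphocyte and muscle genes in the keratin values was not tested.

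Over all 29 genes, wild-type replicate 1 gave the highest ratio for 9 and wild-type replicate 2 the lowest for 12. The SD within genotypes was above the median of all tested probes, 0.267, for 21 genes. The Krt42 probe (singled out after its values were seen), for a keratin expressed in nail, followed the luminal keratins. Its log2 ratios were 2.58, 0.71 and 1.45 in wild-type and 1.87, 1.90, 1.39 and 1.99 in PRA transgenic glands. In wild-type glands the log2 Cy5 signals were 11.89, 10.06 and 10.54 for Krt42, beside 14.15, 12.34 and 12.74 for Krt19. The second Krt42 probe was at background throughout, so the detected signal rests on 1 probe. Whether that probe also detects transcripts of other keratins was not tested, so its signal is uncertain. The Krt81 probe, whose signal may include Krt83, with 0.28, -0.86 and -0.17 in wild-type and -0.13, 0.32, -0.49 and -0.21 in PRA transgenic glands, was likewise lowest in wild-type replicate 2.

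**Figure D3:**
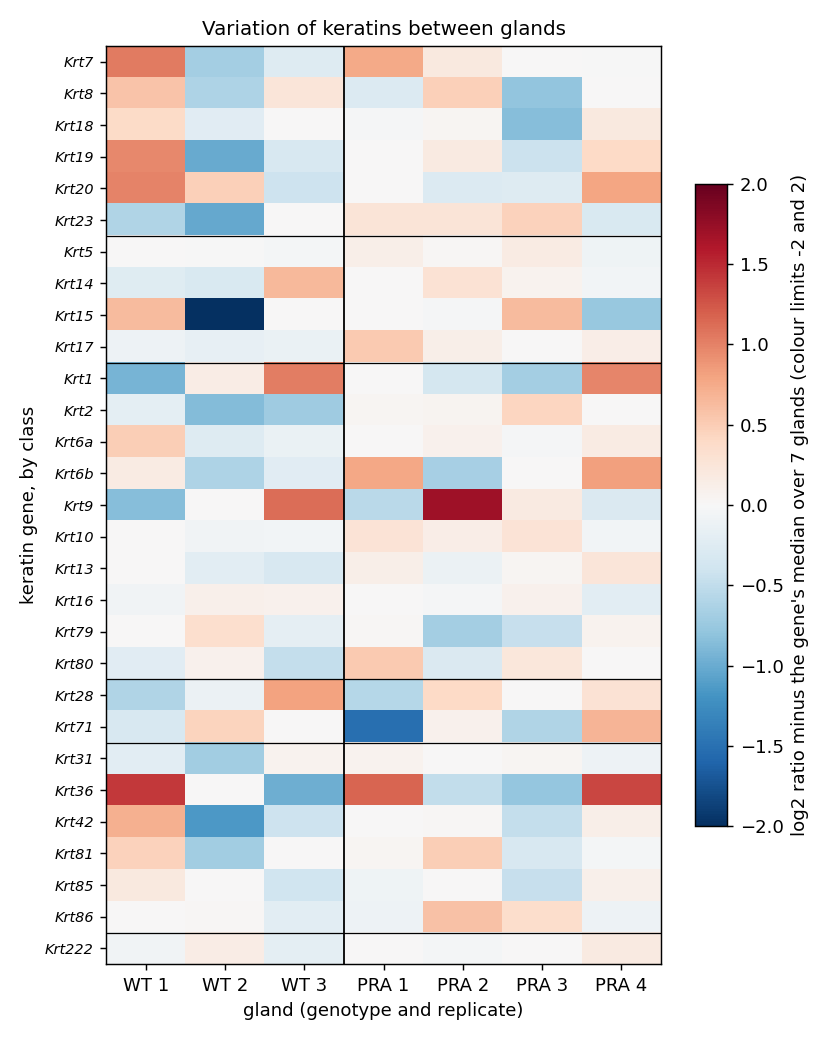
Heatmap of the 29 tested keratin genes (rows, ordered by class between black lines) in the 7 glands (columns, wild-type left of the vertical line). Colour gives the log2 ratio minus the gene's median over the 7 glands, red above and blue below, with values past the colour limits drawn in the end colour. Wild-type replicate 1 is red for Krt7, Krt8, Krt18 and Krt19 and wild-type replicate 2 is blue for them, while the row of Krt5 is nearly white.

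The 2 remaining simple epithelial keratins lay on opposite sides of the reference, with the reference itself well above background for Krt23 on 1 of 7 arrays, so that the ratios of Krt23 have no firm size. Krt20, a type I keratin of gut and urothelium, had log2 ratios of -3.10, -3.62 and -4.50 in wild-type and -4.09, -4.37, -4.35 and -3.30 in PRA transgenic glands, lower than the reference in every animal. The genotypes overlapped, with a log2 fold change of -0.29 (95% interval -1.21 to 0.63). Krt23, a type I keratin of simple epithelia, had 3.63, 3.20 and 4.23 in wild-type and 4.48, 4.49, 4.70 and 3.93 in PRA transgenic glands. Replicates 1, 2 and 3 of the PRA transgenic glands were above every wild-type gland, and PRA transgenic replicate 4 was below wild-type replicate 3.

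In the comparison of the genotypes, slide row cannot be told apart from genotype. Of the 32 keratin probes 2 passed P under 0.05 with at least 1.5-fold change, those of Krt2 and Krt23. Both were higher in PRA transgenic glands. Over all tested probes 4.53% passed, 1.94% higher and 2.59% lower. No keratin probe passed P under 0.01 with a 2-fold change, against 0.796% of all probes. None passed an adjusted p under 0.05 in limma, against 0.0117% of all, and at an unadjusted P under 0.05 the same number, 2 of 32, stood against 9.02% of all. The lowest adjusted p of a keratin probe was 0.411. Without the filter on dim probes 5 of 68 keratin probes passed P under 0.05 with 1.5-fold change, against 5.95% of all probes.

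Krt2, a type II keratin of the upper layers of epidermis, had log2 ratios of 0.78, 0.11 and 0.28 in wild-type and 1.02, 1.03, 1.41 and 0.98 in PRA transgenic glands, with no overlap. This gave a log2 fold change of 0.72 (SE 0.20, adjusted p = 0.411 from limma). The difference lay in the reference channel. The log2 Cy5 signals were 5.61, 5.10 and 5.13 in wild-type and 5.53, 4.87, 5.09 and 5.12 in PRA transgenic glands, which overlapped, whereas the log2 Cy3 signals of the common reference were 4.84, 5.00 and 4.86 on the wild-type and 4.51, 3.84, 3.68 and 4.14 on the PRA transgenic arrays. Cy3 was well above background for this probe on 3 of 7 arrays, and the part of the lower share of such probes on PRA transgenic arrays was not tested. Cy5 alone gave a log2 fold change of 0.07 (SE 0.21, adjusted p = 0.953 from limma).

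For Krt23 the log2 fold change was 0.71 (SE 0.28, adjusted p = 0.525 from limma). Its log2 Cy5 signals were 8.26, 7.57 and 9.30 in wild-type and 7.47, 8.73, 8.57 and 8.36 in PRA transgenic glands, which overlapped. Its log2 Cy3 signals were 4.63, 4.37 and 5.07 on the wild-type and 2.99, 4.23, 3.88 and 4.43 on the PRA transgenic arrays, and Cy3 was well above background on 1 of 7. Cy5 alone gave a log2 fold change of 0.11 (SE 0.51, adjusted p = 0.973 from limma). With normexp background correction and loess in place of the processed signals, the log2 fold changes were 0.18 for Krt2 and 0.09 for Krt23, and no keratin probe passed the threshold. Without wild-type replicate 2 neither gene passed, at 0.58 and 0.47. Krt23 also fell below the threshold without wild-type replicate 1 (0.68) and without PRA transgenic replicate 1 (0.69), 2 (0.68) or 3 (0.61), and with the methods' t-test.

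**Figure D4:**
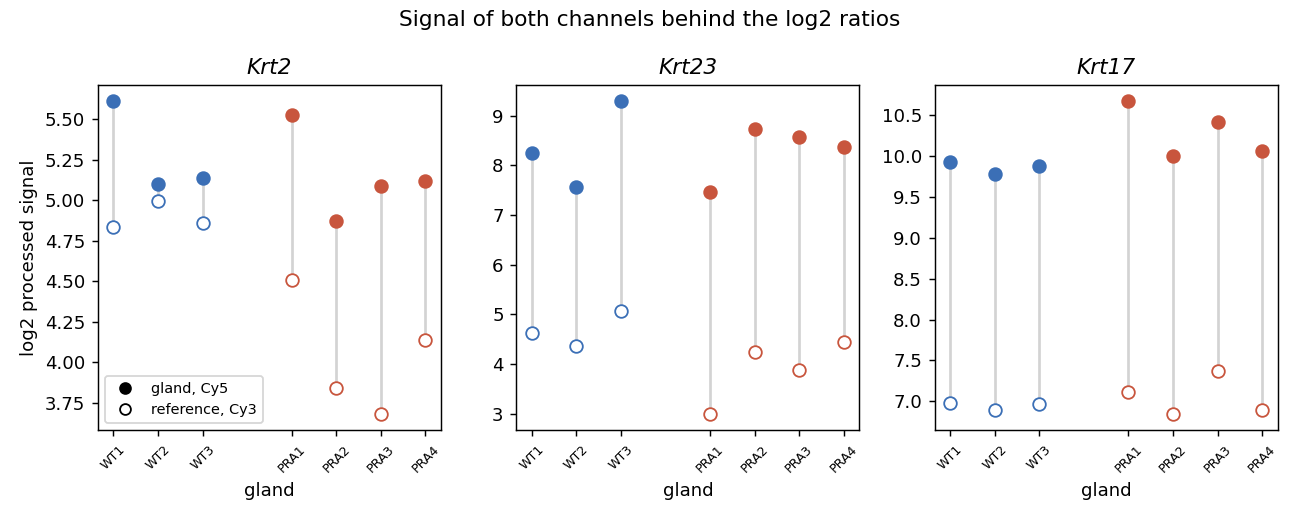
Log2 processed signal of Krt2, Krt23 and Krt17 in each gland, with filled points for the gland (Cy5), open points for the reference (Cy3), wild-type in blue and PRA transgenic in red. The length of the grey line is the log2 ratio, and each panel has its own vertical scale. For Krt2 the open points fall from 4.84 to 5.00 on the wild-type arrays to 3.68 to 4.51 on the PRA transgenic arrays while the filled points overlap.

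Over the 29 genes the median log2 fold change was 0.15, with 20 genes above 0 and 9 below, beside a median of 0.02 and 54.2% above 0 over all tested probes. Without wild-type replicate 2 the median was -0.04, and without wild-type replicate 1 it was 0.25. By class the median was -0.03 for the luminal and simple epithelial keratins (3 above 0 and 3 below), 0.20 for the 4 basal keratins (all above 0), 0.19 for the 10 suprabasal and stratified keratins, 0.18 for the 6 hair and nail keratins and -0.19 for the 2 inner root sheath keratins.

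**Figure D5:**
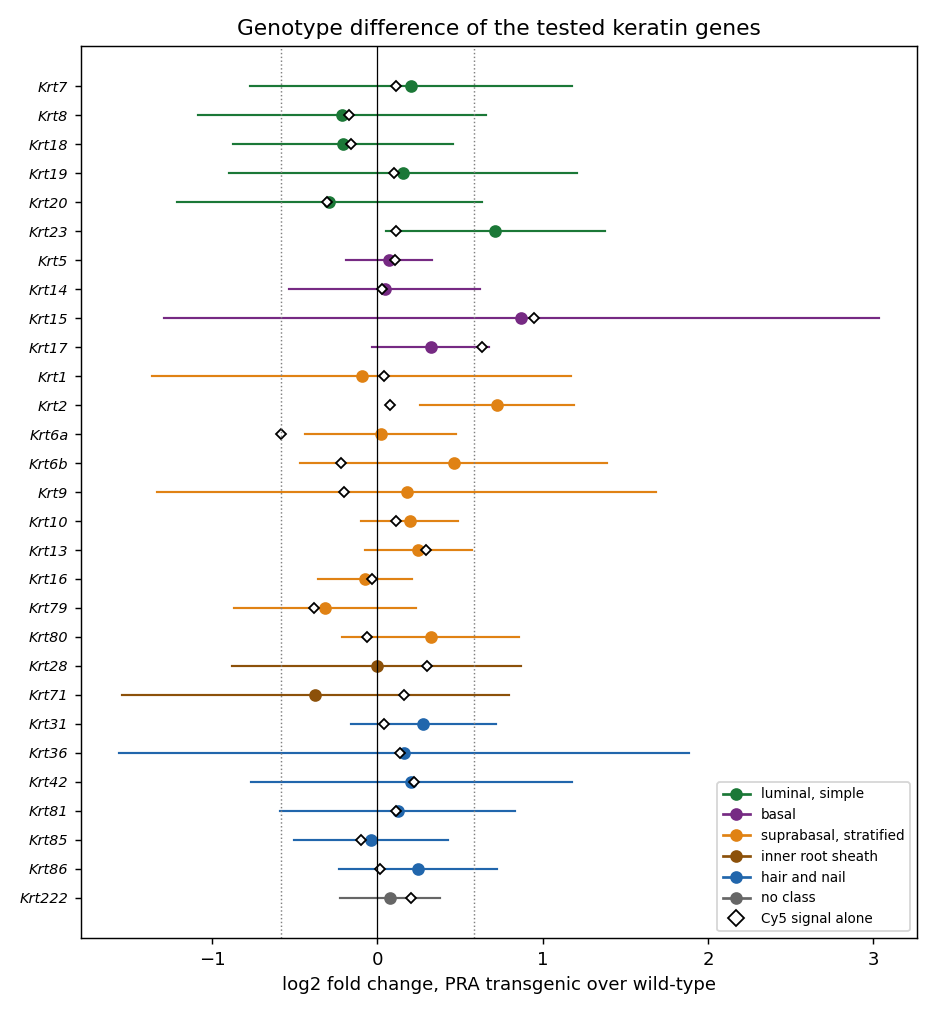
Log2 fold change of PRA transgenic over wild-type for the 29 tested keratin genes, coloured by class, with lines giving the 95% interval from limma. Open diamonds give the same difference in the Cy5 signal alone, and dotted lines mark 1.5-fold. The intervals of Krt2 and Krt23 alone lie clear of 0, and their diamonds sit at 0.07 and 0.11.

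Among the keratins of stratified epithelium, Krt13, which covers internal mucosa, was far below the reference, with log2 ratios of -2.998, -3.216 and -3.313 in wild-type and -2.89, -3.11, -2.96 and -2.75 in PRA transgenic glands. The groups overlapped, Cy5 was well above background on 6 of 7 arrays, and the log2 fold change was 0.25 (adjusted p = 0.651 from limma). Krt9, a type I keratin of footpad skin, varied most in its class, with -0.42, 0.43 and 1.54 in wild-type and -0.10, 2.13, 0.60 and 0.15 in PRA transgenic glands. PRA transgenic replicate 2 was the highest, and the log2 fold change was 0.18 (95% interval -1.33 to 1.69), with Cy3 well above background on 3 of 7 arrays.

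Krt10, Krt1 and Krt6a were singled out after their values were seen. Krt10, a type I keratin of suprabasal epidermis, was steady, with log2 ratios of 0.63, 0.56 and 0.58 in wild-type and 0.91, 0.76, 0.90 and 0.58 in PRA transgenic glands. The tested probe of its partner Krt1 is listed on the plus strand at 101678904 to 101678963 of chromosome 15 of mm9, whereas the other Krt1 probe is on the minus strand and was above background on no array. The strand that the Krt1 signal comes from is therefore uncertain. The single Krt86 probe is listed on the plus strand, at 101310123 to 101310182, as are the probes of Krt7 and Krt18. No second probe of Krt86 was available for comparison. Of 46 keratin probes compared with the strand of the gene, 1 lay on the opposite strand. That was the untested Krt79 probe, which was above background on no array. Krt6a, a type II keratin induced in wounded epidermis, gave a log2 fold change of 0.02 in the ratio and -0.58 in Cy5 alone (SE 0.29, adjusted p = 0.62 from limma).

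Krt36, a type I keratin of the hair and tongue, had the highest mean log2 ratio of the 29 genes. Its values were 5.45, 4.03 and 3.06 in wild-type and 5.19, 3.54, 3.26 and 5.37 in PRA transgenic glands, high in wild-type replicate 1 and PRA transgenic replicates 1 and 4. The reference did not exceed background for it on any array, so the ratios have no firm size, but the log2 Cy5 signals, from 7.21 to 8.64, also spread widely. The log2 fold change was 0.16 (95% interval -1.56 to 1.88). Its second probe was above background on no array.

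The probes of Krt85 and Krt86, type II keratins of hair, gave ratios below the reference in every gland, from -1.34 to -0.69 and from -1.94 to -1.14, and the genotypes overlapped for both. Whether the Krt85 probe also detects transcripts of its relatives was not tested, so its signal is uncertain. The Krt86 signal rests on 1 probe. Krt71, a type II keratin of the inner root sheath, had 2.62, 3.38 and 2.94 in wild-type and 1.43, 3.02, 2.34 and 3.61 in PRA transgenic glands, with no array on which the reference was above background. Its log2 fold change was -0.38 in the ratio and 0.16 in Cy5 alone. Krt222 was at the level of the reference, between -0.10 and 0.27.

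RNA was also compared for a list of 17 genes drawn up for keratin filament anchors and linkers. The list held desmosomal and hemidesmosomal plaque proteins, plakins and others, and also Krtcap2 and Krtcap3, which are named as keratinocyte-associated proteins. All 17 were tested and none passed the threshold, beside 4.53% of all probes. Of the 17 genes 7 were above 0 and 10 below, with a median log2 fold change of -0.08. The smallest P was that of Pkp2, a desmosomal plaque protein, at a log2 fold change of -0.43 (adjusted p = 0.608 from limma). Of 10 tested intermediate filament genes other than keratins none passed, and Vim, the filament protein of mesenchymal cells, had a log2 fold change of -0.24 (adjusted p = 0.902 from limma).

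None of the 15 tested luminal genes other than keratins and none of the 12 myoepithelial genes passed the threshold, beside 4.53% of all tested probes, with medians of -0.12 and 0.12. Cldn3, a tight junction protein of luminal cells, had the smallest P of the luminal genes. Its log2 fold change was 0.41 (adjusted p = 0.412 from limma), below 1.5-fold. In Cy5 alone the sign turned, to -0.52, and the Cldn3 reference was well above background on 6 of 7 arrays. Tagln, an actin-binding protein of contractile cells, had the smallest P of the myoepithelial genes. Its log2 fold change was 0.39 (adjusted p = 0.513 from limma), also below 1.5-fold, and 0.37 in Cy5 alone.

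Of 18 epidermal genes on the array 9 were tested, and among the other 9 were Ivl, Flg2, Dsg1a and Dsc1. Lor, the cornified envelope protein loricrin, was the 1 of the 9 past the threshold, lower in PRA transgenic glands, beside 2.59% of all probes. It was tested only because it was above background on the 3 wild-type arrays, its Cy5 was above background on no PRA transgenic array and its reference on none, so no size is given. Of 14 hair follicle genes other than keratins 6 were tested and none passed, and Tchh, Foxn1 and Dsg4 were among those not tested.

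The promoters of Krt8 and Krt18, the pair with the highest Pearson r, of Krt7 and of the steady Krt5 are shown as the 250 bases before the RefSeq start on GRCm38.p6, 5′ to 3′ on the strand of the gene. The coordinates are chr15:102004343-102004592 (minus strand) for Krt8, chr15:102027966-102028215 (plus strand) for Krt18, chr15:101412153-101412402 (plus strand) for Krt7 and chr15:101712906-101713155 (minus strand) for Krt5. Capitals mark matches on either strand to TATAAA, the TATA box, GGGCGG, the core bound by Sp1, TGANTCA, the AP-1 motif, and CAGGTG, an E-box. No 2 matches overlap in these windows.
Krt8: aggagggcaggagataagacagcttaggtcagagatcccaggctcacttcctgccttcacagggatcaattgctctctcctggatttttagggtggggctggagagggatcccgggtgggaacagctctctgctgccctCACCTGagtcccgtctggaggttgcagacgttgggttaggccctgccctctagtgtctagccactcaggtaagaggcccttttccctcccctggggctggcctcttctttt
Krt18: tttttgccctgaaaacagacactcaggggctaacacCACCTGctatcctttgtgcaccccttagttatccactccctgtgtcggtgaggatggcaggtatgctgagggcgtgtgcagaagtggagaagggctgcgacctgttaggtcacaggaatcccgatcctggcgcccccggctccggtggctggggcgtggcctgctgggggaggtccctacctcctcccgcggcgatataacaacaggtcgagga
Krt7: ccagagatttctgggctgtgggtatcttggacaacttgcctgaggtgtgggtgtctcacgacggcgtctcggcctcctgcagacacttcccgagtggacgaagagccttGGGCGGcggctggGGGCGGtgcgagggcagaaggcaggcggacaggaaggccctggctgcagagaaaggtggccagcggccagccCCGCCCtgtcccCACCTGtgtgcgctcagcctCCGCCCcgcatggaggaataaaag
Krt5: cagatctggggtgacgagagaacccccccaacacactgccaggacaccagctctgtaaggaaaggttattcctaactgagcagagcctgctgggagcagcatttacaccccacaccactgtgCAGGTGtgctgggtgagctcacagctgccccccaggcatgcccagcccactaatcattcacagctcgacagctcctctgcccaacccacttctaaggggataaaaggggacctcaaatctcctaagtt

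Each of the 4 windows held 1 CAGGTG, and Krt7 also held 4 GGGCGG. None held TATAAA or TGANTCA. The RefSeq table held 36 windows for 35 of the 52 keratin genes, and Krt15, Krt17 and Krt19 were not among them. TATAAA was found in 17 of the 36, against 12.4% of all 32851 windows, and CAGGTG in 13 of the 36, against 17.2%. GGGCGG was found in 2 of the 36, against 32.7%, and TGANTCA in 2 of the 36, against 6.75%. A match is a stretch of letters and not a measured binding site.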

How the data were processed

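For each array the authors deposited the output of Agilent Feature Extraction 12.0, with processed intensity values that the software had corrected for background and for dye, dim signals being set to surrogate values. A table of log2 ratios that the authors deposited for the series matched the log2 ratio of these intensities after centering on each probe's median over the 7 arrays (99th percentile of the absolute difference 1.71e-06). Here control spots and outliers were removed, processed Cy5 was divided by processed Cy3, log2 was taken and repeated spots were averaged. Of 56605 probes 34288 were tested by limma 3.58.1 (lmFit and eBayes) under R 4.3.3, and p-values were adjusted after Benjamini-Hochberg over all of them. The tested probe brightest in Cy5 stood for a gene. Of the 68 probes, 58 had an accession in the RefSeq table, and 57 of these carried the same symbol. Another 3 probes, filed under other names, now have a keratin symbol and were not used. Probe positions, on mm9, were taken from the files, and no annotation of exons was used here.

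Genotypes and replicate numbers came from the labels. The 8 luminal and basal keratins, the genes past the threshold, the 5 highest and 5 lowest ratios and the widest range in each class were named, with others where stated. The members, gene lists and tests were chosen with earlier results of these data known, and the correlations between keratins were added after their values were seen. Alternatives were normexp (offset 50) with loess, the series table, no filter, a filter on both channels, Cy5 alone, quantile normalization between arrays, the methods' t-test, a variance trend with intensity, array weights, a replicate block and leaving out each array. The steps were tested on simulated data. The sequence of 1 keratin probe is not reported here.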

Additional observations from a re-analysis of the deposited data

Results flagged for a closer look

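In groups of 4 arrays, the gap between the most extreme array and its nearest neighbor was set against the range of the group, with a critical value of 0.829, for the PRA transgenic arrays of 29 keratin genes and 16 gene lists. Of these 45 groups 4 stood out, and chance flags about 1 in 20. For Krt2 the share was 0.889, with replicate 3 at 1.41 above the others. The log2 Cy5 of that gland, 5.09, lay among the other PRA transgenic glands, and its log2 Cy3, 3.68, was the lowest. Cy3 was well above background for Krt2 on 3 of 7 arrays. For Krt222 the share was 0.843, with replicate 4 at 0.27 above the others. For the mean of the luminal and simple epithelial keratins it was 0.876, with replicate 3 at 0.47 below the others. For the mean of the skeletal muscle genes it was 0.931, with replicate 4 at 2.63 above the others. The 3 wild-type arrays are too few for this check.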

How the results depend on the processing

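The number of keratin probes past P under 0.05 and 1.5-fold, 2 of 32, was 0 with normexp and loess, 5 of 68 without a filter, 0 of 21 where both channels had to be well above background, 1 in Cy5 alone (Krt17) and 1 with the methods' t-test. It ranged from 0 to 3 when arrays were left out. No keratin probe passed an adjusted p under 0.05 under any of these. Over all probes 1552 passed, against 328 with normexp and loess, 3367 without a filter (5.95%), 468 with both channels above background, 996 with the methods' t-test, and 1382 to 2334 when arrays were left out, the last without PRA transgenic replicate 4. The median log2 fold change of the keratin genes, 0.15, was 0.067 without a filter, 0.062 with array weights and -0.043 to 0.249 when arrays were left out. The cause of these differences was not tested, except that fewer or more probes were tested under the other filters. No scaling moved the median of all probes by over 0.1.

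Of the named keratins, those whose log2 fold change turned sign are given here, and none passed the threshold with the sign turned. Array weights gave -0.10 for Krt19, -0.39 for Krt36 and -0.0059 for Krt7. Cy5 alone gave 0.16 for Krt71 and -0.20 for Krt9 (and turned the sign of 7 of the 29 genes, with Krt1, Krt28, Krt6a, Krt6b and Krt80), and normexp with loess gave 0.055 for Krt71. With arrays left out in turn the ranges were -0.12 to 0.35 for Krt14, -0.36 to 1.64 for Krt15, -0.35 to 0.023 for Krt18, -0.29 to 0.70 for Krt19, -0.67 to 0.031 for Krt20, -0.40 to 0.79 for Krt36, -0.15 to 0.71 for Krt7 (past the threshold at 0.71, without wild-type replicate 1), -0.71 to 0.013 for Krt71, -0.55 to 0.041 for Krt8, -0.18 to 0.39 for Krt81, -0.20 to 0.091 for Krt85 and -0.30 to 0.69 for Krt9.

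The replicate numbers are shared by the genotypes, but arrays of the same number did not deviate together (correlations of 0.10, -0.30 and 0.04). With the replicate number as a block, in which PRA transgenic replicate 4 has no partner and adds nothing to the difference, 3 keratin probes and 2444 of all probes passed, the median was 0.12 and Krt36 turned to -0.18. Krt71 then passed, at -0.71, with Cy5 above background on 3 of 4 PRA transgenic arrays and its reference above background on none. The 0.16 in Cy5 alone given above is from the fit without the block. It uses PRA transgenic replicate 4, whose log2 Cy5 of 6.30 was the highest, so it cannot be set against -0.71. Cy5 alone was not fitted with the block. The slide could not be fitted as a block, since there was 1 slide.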
